A study of Mus musculus with 9 samples.

Results

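Long noncoding RNAs that stay in the nucleus, and small structural RNAs that form the core of ribonucleoprotein enzymes, are not templates for protein synthesis. UPF1 is an RNA helicase that binds RNA broadly, and its phosphorylated form (p-UPF1) accumulates on mRNAs that are being degraded by nonsense-mediated mRNA decay, a pathway that depends on translation. Noncoding RNAs recovered with p-UPF1 can therefore be read beside the mRNAs of the same libraries.

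The genes described are Malat1, Neat1, Meg3, Kcnq1ot1, Rn7sk, Rmrp, Rpph1 and Terc, chosen by gene name, and all 8 were found among the 54325 gene names of the count table. Their counts were spread over 26 of its 140658 transcripts and were summed for each gene. N2A (Neuro-2A) cells, a mouse neuroblastoma line, had all been exposed for 2 h to okadaic acid at 200 nM, which blocks protein phosphatases. In RIP-seq, RNA bound to an immunoprecipitated protein is trimmed with a ribonuclease and the short fragments that remain are sequenced. The 3 groups were RNA recovered with an antibody to p-UPF1 (p-UPF1 IP), RNA recovered with control rabbit IgG (rIgG IP), and RNA taken without immunoprecipitation (Input), with 3 libraries in each. The sources used here do not say whether the sequenced replicates came from separate cultures, so the tests measure the spread between libraries, which may be technical.

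Total counts were 26023968, 25184464 and 29857955 in the Input libraries, 5312526, 6032142 and 6246110 in the p-UPF1 IP libraries, and 474491, 205177 and 79010 in the rIgG IP libraries. A gene needed 3 counts, or 0.1 to 0.119 CPM (counts relative to the total of the library) in Input, 0.48 to 0.565 CPM in the p-UPF1 IP and 6.32 to 38 CPM in the rIgG IP, to be told from 0, and this floor covers counting error only. The rIgG IP was thus shallow for the rarer members. No library was a copy of another, since replicate pairs gave chi-square values of 3.62 to 15.6 per degree of freedom over genes.

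Most markers listed for a sympathetic neuroblastoma line were counted in the Input libraries, at unequal levels. Of 14 such markers, 13 had at least 10 counts in every Input library, and together they summed to 421, 427 and 404 CPM, led by the intermediate filament gene Prph. Glial markers summed to 2.36, 1.72 and 1.64 CPM with Aqp4 and Slc1a3 at 0, fibroblast markers to 2.14, 2.17 and 2.56 CPM with Col1a2 and Col3a1 at 0, and blood markers to 0.0436, 0.181 and 0.04 CPM with the hemoglobin genes Hba-a1, Hba-a2, Hbb-bs and Hbb-bt at 0. The most counted of them in Input were Mbp, Pdgfra and Ptprc. Of the glial and of the fibroblast markers, 2 of 6 each had at least 10 counts in every Input library, and of the blood markers 0 of 7. The sympathetic markers Th and Dbh were low, at a mean of 0.818 and 0.368 CPM in Input, below the glial Mbp at 1.19. Outside Input, Hbb-bs had 7, 0 and 0 counts in the rIgG IP and 1, 2 and 0 in the p-UPF1 IP.

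The 8 members did not move as a group. In the p-UPF1 IP over input, Meg3, Rmrp and Terc were called higher, Malat1, Kcnq1ot1 and Rn7sk were called lower, and Neat1 and Rpph1 were not called. A call required a log2 fold change beyond 1 in size and a Benjamini-Hochberg adjusted p under 0.05 in edgeR's quasi-likelihood test over all genes tested. Beside these 3 and 3 members, 2919 of 16919 genes tested (17.3%) were called higher and 4480 (26.5%) lower. The median log2 fold change was -0.46 over the members and -0.42 over all genes tested, or -0.24 when the 1666 genes at 0 throughout 1 of the groups are set to the bound that 3 counts allow. Of the genes called lower, 934 had no p-UPF1 IP count, and the bound of 453 of these passed the fold threshold.

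Over the rIgG IP, 1 member was called higher (Rmrp) and 4 were called lower (Malat1, Kcnq1ot1, Rn7sk and Rpph1), beside 2102 of 12033 genes tested (17.5%) called higher and 643 (5.34%) called lower. The members' median log2 fold change was -1.69, against 0.89 over all genes tested, or 0.17 with 2364 genes at their bound. Of the genes called higher, 388 had no rIgG IP count, and the bound of 196 of these passed the fold threshold. On simulated data the calls of all 3 comparisons held more false ones than the adjusted p allows, and those over the rIgG IP the most. The simulation changed far fewer genes than were called in the p-UPF1 IP, and the false share depends on how many genes change. The size of that share thus does not carry over to these data. The counts of calls, also those over input, are still taken as less firm than their threshold states. In the rIgG IP over input, Rpph1 was the 1 member called higher by edgeR with TMM. With RLE size factors or library totals alone 2 members were called higher, and with DESeq2 3. No member was called lower by edgeR, by DESeq2 or at an unadjusted p under 0.05. The members' median there was 0.7 with 7 of 8 above 0, against -0.84 over all genes, or 0 with genes at their bound. Of 16280 genes tested there, 95 (0.584%) were called higher and 51 (0.313%) lower. The counts of all genes rest in part on single libraries, with 1299 higher and 307 lower over the rIgG IP without rIgG IP replicate 1, 1396 higher without rIgG IP replicate 2, and, in the rIgG IP over input, 180 higher and 134 lower without Input replicate 2 and 25 lower without rIgG IP replicate 2. These comparisons share libraries and are not independent of each other.

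**Figure D1:**
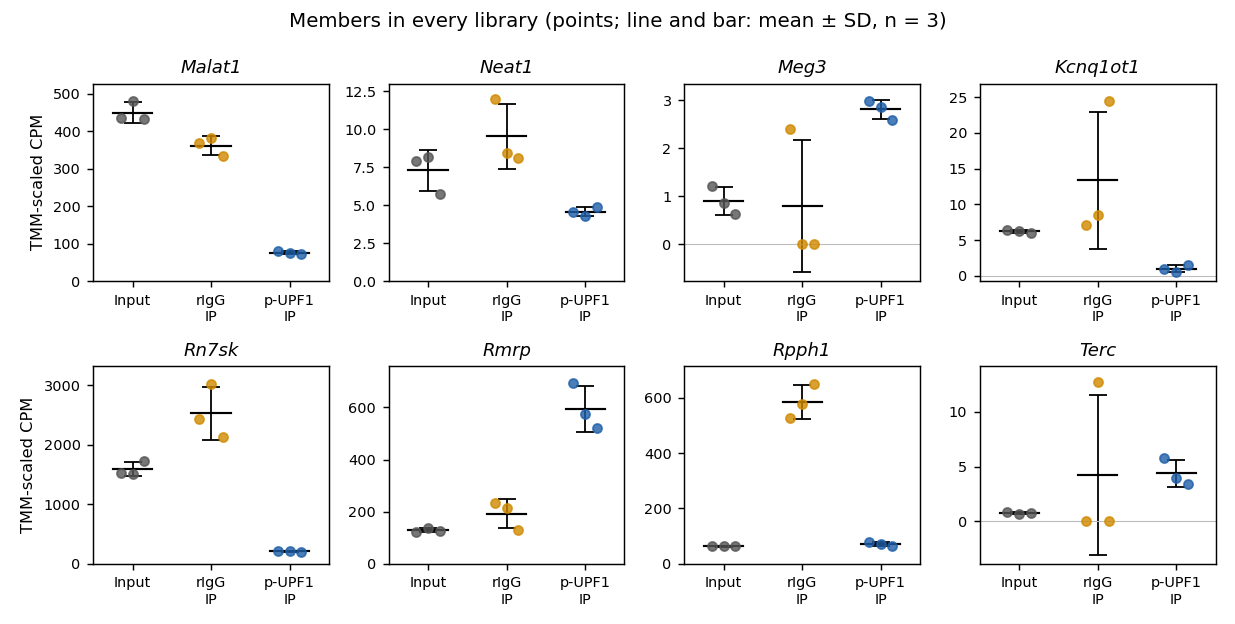
Each panel shows a member's TMM-scaled CPM (linear vertical axis) in the Input, rIgG IP and p-UPF1 IP libraries; points are libraries, lines are means and bars are the SD (n = 3). Malat1, Kcnq1ot1 and Rn7sk lie lowest in the p-UPF1 IP, Rmrp lies highest there at 519.8 to 693 CPM, and Rpph1 lies highest in the rIgG IP at 527 to 650.5 CPM.

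Malat1 is the abundant RNA of nuclear speckles, transcribed from a single exon on chromosome 19 (chr19:5795690-5802672, minus strand, GRCm38). Its level, as CPM scaled by TMM over the 9 libraries, was 436, 481 and 431 in Input, 369, 381 and 333 in the rIgG IP, and 79.2, 76.1 and 71.3 in the p-UPF1 IP. The 3 p-UPF1 IP libraries lay far below the 6 others, which themselves separated by group by a smaller margin, but overlapped when scaled by library totals alone. Malat1 fell 6.86-fold in the p-UPF1 IP over input (log2 fold change -2.78 ± 0.08 SE, edgeR adjusted p = 1.36e-09) and 4.76-fold over the rIgG IP (-2.25 ± 0.17 SE, edgeR adjusted p = 1.64e-10). Between rIgG IP and input the fitted value was -0.27 ± 0.18 SE (edgeR adjusted p = 0.595), and it turned to 0.04 with RLE size factors. Rps14 and Rpl28, which encode ribosomal proteins, had the profiles closest to Malat1 over the 9 libraries, at a root mean square distance of 0.167 and 0.21 in centred log2(CPM + 1) among 2236 candidates.

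Nearly all of the Malat1 signal in the p-UPF1 IP came from the full-length transcript ENSMUST00000172812.2 (6983 nt), where the replicates had 399, 480 and 438. It held 84.7% of the Malat1 counts in Input, 87.7% in the rIgG IP and 99.8% in the p-UPF1 IP. A pair of short spliced transcripts from the 3′ part of the gene, ENSMUST00000174808.1 and ENSMUST00000173314.1, held 8.31% and 6.79% in Input but no count in any p-UPF1 IP library. Because 4.82% and 5.56% of their 35-nt windows are found in no other Malat1 transcript, this division rests on Salmon's assignment of shared fragments and was not tested.

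Neat1, transcribed next to Malat1 (chr19:5824708-5845478, minus strand), is the architectural RNA of paraspeckles. It was far less abundant, at 7.94, 8.15 and 5.76 CPM in Input, 12, 8.46 and 8.13 in the rIgG IP and 4.57, 4.28 and 4.86 in the p-UPF1 IP. Every p-UPF1 IP library was below every other library, whereas Input and rIgG IP overlapped, though not by library totals alone. The decrease over input, 1.83-fold, passed the adjusted p but stayed inside the fold threshold (log2 fold change -0.87 ± 0.18 SE, edgeR adjusted p = 0.00167). With library totals alone it was -0.47 and no longer passed (edgeR adjusted p = 0.0628), and the adjusted p of the other alternatives lay between 6.77e-06 and 0.0128. Against the rIgG IP, where Neat1 had 8 counts in all, the value was -1.14 ± 0.56 SE (edgeR adjusted p = 0.153). Its nearest profiles were those of Nacc1, a transcriptional regulator, and Hmgn2, a nucleosome-binding protein, at distances of 0.152 and 0.174.

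The transcripts that carried Neat1 differed between groups. The long transcript ENSMUST00000173672.1 (20771 nt) had 115, 128 and 100 Input counts but 10, 4 and 5 p-UPF1 IP counts, or 67.8% and 23.8% of the gene's counts. The short ENSMUST00000174287.1 (3004 nt), from the 5′ part of the gene, had 63, 52 and 40 Input counts against 8, 15 and 14 with p-UPF1, or 30.6% and 46.2%. A spliced transcript of the same part, ENSMUST00000174829.1 (1030 nt), was without a count in Input but had 5, 8 and 11 with p-UPF1 (30% of the gene's counts there). It also had 1, 1 and 0 counts in the rIgG IP, or 25% of the 8 Neat1 counts there. The long transcript held 75% of these 8 and the 3004-nt transcript had none. None of the windows of the 3004-nt transcript and 6.53% of those of the 1030-nt transcript are absent from the other Neat1 transcripts, so these shares describe the deposited assignment, with no test.

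Paraspeckle proteins are encoded by mRNAs that mostly stayed within the thresholds. Of 12 such mRNAs, all tested over input, 2 rose (Smarca4 by 1.29 ± 0.07 SE and Rbmx by 1.32 ± 0.18 SE in log2) and 1 fell (Rbm3, -2.46 ± 0.12 SE), beside 17.3% of all genes higher and 26.5% lower. Their median was -0.24, against -0.42 over all genes as fitted and the same -0.24 with genes at their bound. Over the rIgG IP, where 17.5% of all genes were called higher and 5.34% lower, Smarca4 (1.99 ± 0.33 SE) and Rbm3 (-1.93 ± 0.37 SE) were called, and Rbmx, with 1 rIgG IP count, had a pooled ratio of 4.79 (95% exact interval 0.842 to 191).

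Meg3 is the maternally expressed RNA of the imprinted Dlk1-Dio3 domain (main transcript chr12:109545398-109571726, plus strand, 5 exons). It was rare in these cells, with 28, 19 and 16 counts in Input (1.22, 0.861 and 0.64 CPM), 1, 0 and 0 counts in the rIgG IP, and 15, 18 and 16 with p-UPF1 (2.98, 2.85 and 2.59 CPM). All p-UPF1 IP libraries were above all Input libraries. Meg3 rose 2.67-fold over input (log2 fold change 1.42 ± 0.31 SE, edgeR adjusted p = 0.0028). With the single rIgG IP count no difference from the rIgG IP was detectable at this depth: the pooled ratio was 2.11, with an exact 95% interval of 0.362 to 85.2. The transcript ENSMUST00000146701.7 (14548 nt) held 74.6% of the Meg3 counts in Input and 81.6% in the p-UPF1 IP. Smaller parts were held by ENSMUST00000143272.7, with 11.1% in Input and no count in the p-UPF1 IP, and by ENSMUST00000128458.2, with 4.76% and 10.2%. Snx25 and Soga3 lay nearest to Meg3 in profile (distances 0.14 and 0.142 among 2237 candidates), although its rIgG IP values rest on 1 count. The 1 added to CPM before the log also compresses changes at levels as low as those of Meg3. From Input to p-UPF1 IP, mean CPM went from 0.907 to 2.81 for Meg3. It went from 18.5 to 31.6 for Snx25 and from 14.3 to 33.5 for Soga3.

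Kcnq1ot1, the paternally expressed antisense RNA that silences its neighbours in the Kcnq1 domain, is annotated as 1 exon of 93092 nt (chr7:143203458-143296549, minus strand). Input replicates had 147, 138 and 150 counts, rIgG IP replicates 3, 2 and 3 and p-UPF1 IP replicates 5, 3 and 9, and all belonged to ENSMUST00000185789.2. The protein-coding gene Kcnq1 on the opposite strand had no count in any library. In CPM, Kcnq1ot1 stood at 6.41, 6.25 and 6 in Input and at 0.993, 0.476 and 1.46 in the p-UPF1 IP, with no overlap. It fell 7.32-fold over input (log2 fold change -2.87 ± 0.26 SE, edgeR adjusted p = 4.77e-06) and 10.4-fold over the rIgG IP (-3.38 ± 0.8 SE, edgeR adjusted p = 0.00291), the latter on 8 rIgG IP counts. The pooled ratio to the rIgG IP was 0.0916 (exact 95% interval 0.0375 to 0.245). Gm23143 and Actr10 were its nearest profiles, at 0.421 and 0.424.

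Meg3 and Kcnq1ot1 thus moved in opposite directions over input, and few of the imprinted genes near them could be measured. Of 11 such genes, 5 were tested over input, none was called higher and 1 was called lower, beside 17.3% and 26.5% of all genes (Dlk1, the growth regulator of the Meg3 domain, -1.57 ± 0.24 SE). Their median was -0.06, against -0.42 over all genes, or -0.24 at the bound. Dlk1 had 1 rIgG IP count and a pooled ratio of 1.25 to the rIgG IP (exact 95% interval 0.207 to 51.1). Among 16 other nuclear long noncoding RNAs, 10 were tested over input, 2 were called higher and 4 lower (17.3% and 26.5% over all genes), with a median of -0.18, or 0.14 with those at 0 throughout 1 of the groups at their bound. Firre, which tethers chromatin domains, rose by 2.31 ± 0.49 SE, and Dleu2, a microRNA host, fell (-3.38 ± 0.47 SE). Airn and Sox2ot, which are 2 of the 4 called lower, had no p-UPF1 IP count against 17 and 15 counts in Input. Against 3 counts over the group they were at least 1.23-fold and 1.08-fold lower, short of the fold threshold, so 2 of 10 fell with counts in both groups, beside 21% of all genes. None of the 7 tested over the rIgG IP was called by edgeR, beside 17.5% of all genes higher and 5.34% lower, and Firre had a pooled ratio of 1.47 to its 1 count there (exact 95% interval 0.246 to 59.6). Dleu2 and Sox2ot had no rIgG IP count and Airn had 1.

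Rn7sk, Rmrp and Rpph1 are RNA polymerase III transcripts of similar length (331, 281 and 319 nt) with a single exon each. Rn7sk encodes 7SK RNA, which holds the elongation kinase P-TEFb inactive (chr9:78175303-78175633, minus strand). It was the member with the highest count in Input. Its level was 1532, 1509 and 1726 CPM in Input, 2432, 3015 and 2130.2 in the rIgG IP and 217, 214 and 204 in the p-UPF1 IP. The groups did not overlap, with the rIgG IP highest and the p-UPF1 IP lowest. Rn7sk fell 8.66-fold over input (log2 fold change -3.12 ± 0.09 SE, edgeR adjusted p = 1.36e-09) and 11.8-fold over the rIgG IP (-3.56 ± 0.23 SE, edgeR adjusted p = 1.33e-11). In the rIgG IP over input it was not called (0.71 ± 0.22 SE, edgeR adjusted p = 0.22), but it was called with RLE size factors (1.03), library totals alone (1.11) and DESeq2 (1.03). The mitochondrial genes mt-Nd6 and mt-Nd2 were nearest in profile (0.29 and 0.291).

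Near copies of Rn7sk also had counts, and which of the copies these fragments came from was not tested. Only 29.3% of the 35-nt windows of Rn7sk are found in no other annotated transcript, and 4 other genes share over 10% of them. Gm26315, a copy on chromosome 2 singled out after its values were seen, shares 67.7% of the windows and had 29807, 31796 and 31347 Input counts, 573, 77 and 0 rIgG IP counts and none in the 3 p-UPF1 IP libraries. With the counts of the 4 genes added, a choice made after their values were seen, the fall of Rn7sk was larger over input (-3.95 ± 0.08 SE) and similar over the rIgG IP (-3.81 ± 0.25 SE). The excess in the rIgG IP over input shrank to 0.12 ± 0.25 SE, so that value moves with the counts given to the copies.

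The mRNAs of 7SK particle proteins did not follow Rn7sk. Of 7, all tested over input, Cdk9, the kinase subunit of P-TEFb, rose (2.25 ± 0.1 SE, from 6.04 ± 0.624 to 33.2 ± 2.59 CPM, SD, n = 3) and 6 were not called, with a median of -0.09, beside 17.3% of all genes higher and 26.5% lower. Against the rIgG IP 3 of the 7 were called higher, beside 17.5% of all genes, among them Cdk9, whose 2 rIgG IP counts gave a pooled ratio of 12.4 (exact 95% interval 3.43 to 103).

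Rmrp encodes the RNA of RNase MRP, which cleaves precursor rRNA in the nucleolus (chr4:43492783-43493063, minus strand). Its level was 122, 138 and 126 CPM in Input, 232, 216 and 130.1 in the rIgG IP and 693, 574 and 519.8 in the p-UPF1 IP. Each p-UPF1 IP library was above all 6 others, and Input and rIgG IP overlapped, though not by library totals alone. Rmrp rose 4.01-fold over input (log2 fold change 2.01 ± 0.1 SE, edgeR adjusted p = 6.91e-08) and 2.96-fold over the rIgG IP (1.57 ± 0.22 SE, edgeR adjusted p = 8.49e-06). It was the 1 member called higher in both, at percentile 93 of all fold changes over input and percentile 63.5 of those over the rIgG IP. The difference of the rIgG IP from input was 0.7 ± 0.21 SE (edgeR adjusted p = 0.19), and DESeq2 called it at 1.02. All counts lay on the 281-nt ENSMUST00000226420.1 and none on ENSMUST00000157463.1 (271 nt), which lies within it. Apc2 and Gse1 had the nearest profiles, at 0.223 and 0.232.

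Rpph1 encodes the RNA of RNase P, the related enzyme that trims the 5′ ends of precursor tRNAs and shares most of its protein subunits with RNase MRP (chr14:50807449-50807767, minus strand). It did not follow Rmrp. Its level was 62.6, 62.6 and 64.6 CPM in Input, 527, 579 and 650.5 in the rIgG IP, and 77.4, 70.7 and 62.9 in the p-UPF1 IP. The rIgG IP libraries were far above the rest, while Input and p-UPF1 IP overlapped, though by library totals alone the p-UPF1 IP lay higher (54.1 to 55.1 against 62.1 to 73.9 CPM). Rpph1 rose 9.31-fold in the rIgG IP over input (log2 fold change 3.22 ± 0.17 SE, edgeR adjusted p = 1.62e-06), at percentile 98.8 of all genes tested. It was 8.07-fold lower in the p-UPF1 IP than in the rIgG IP (-3.01 ± 0.17 SE, edgeR adjusted p = 2.02e-12). Over input the p-UPF1 IP gave -0.05 ± 0.08 SE (edgeR adjusted p = 0.565). With library totals alone, which move the median of all genes by 0.41, it gave 0.35, which passed the adjusted p (edgeR adjusted p = 0.00494) inside the fold threshold; the adjusted p of the other alternatives lay between 0.282 and 0.89. Relative to that median Rpph1 lay at 0.37 with TMM and 0.36 with library totals. Gm23287 and Rnu1a1, a U1 small nuclear RNA, were nearest in profile (0.315 and 0.413).

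The contrast of the sister RNAs does not depend on scaling. Within a library, Rmrp had 1.96, 2.2 and 1.95 counts for each Rpph1 count in Input, 0.441, 0.372 and 0.2 in the rIgG IP, and 8.95, 8.12 and 8.26 in the p-UPF1 IP. Rmrp over Rn7sk was 0.0799, 0.0912 and 0.0728 in Input, 0.0955, 0.0715 and 0.0611 in the rIgG IP, and 3.19, 2.68 and 2.55 in the p-UPF1 IP. Both ratios were highest in the p-UPF1 IP, without overlap with the other groups, and the first was lowest in the rIgG IP. The ratios were formed after the values were seen and were not tested.

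The sequences of Rmrp and Rpph1 are given 5′ to 3′ from GENCODE M21 to show where a 35-nt fragment can be told from another gene. Capitals mark bases inside a 35-nt window that an annotated transcript of another gene also holds, on either strand. In Rmrp, shown whole, 124 bases are shared with Ccdc107 on the opposite strand, whose summed counts were 89 (Input) and 12 (p-UPF1 IP) against 8984 and 10317 for Rmrp. In Rpph1, 233 of the first 300 bases are marked (chr14:50807468-50807767). Its 199 shared windows all lie in Ccnb1ip1 on the same strand, whose summed counts were 8 (Input) and 1 (p-UPF1 IP). Adding these neighbours' counts left Rmrp at 1.99 and Rpph1 at -0.06 over input.
Rmrp: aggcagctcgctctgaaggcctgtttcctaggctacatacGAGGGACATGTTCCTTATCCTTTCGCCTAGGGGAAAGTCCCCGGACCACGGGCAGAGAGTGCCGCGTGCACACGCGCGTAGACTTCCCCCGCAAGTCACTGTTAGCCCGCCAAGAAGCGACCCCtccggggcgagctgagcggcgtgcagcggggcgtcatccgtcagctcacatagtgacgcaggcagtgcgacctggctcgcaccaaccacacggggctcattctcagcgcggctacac
Rpph1: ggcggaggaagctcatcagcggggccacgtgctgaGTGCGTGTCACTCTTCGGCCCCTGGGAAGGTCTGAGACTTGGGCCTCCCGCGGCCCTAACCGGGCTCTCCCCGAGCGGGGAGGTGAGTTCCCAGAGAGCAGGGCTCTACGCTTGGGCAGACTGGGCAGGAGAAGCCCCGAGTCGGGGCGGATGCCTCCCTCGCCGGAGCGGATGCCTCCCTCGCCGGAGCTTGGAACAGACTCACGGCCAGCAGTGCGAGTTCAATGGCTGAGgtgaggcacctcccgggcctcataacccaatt

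None of the mRNAs of RNase P and RNase MRP proteins was called higher over input as Rmrp was. Of 12, all tested, 6 fell, where 26.5% of all genes fell and 17.3% rose, and 4 had a fitted value above 0. Their median was -1.09, against -0.42 over all genes, or -0.24 at the bound. The largest falls were in Rpp38 (pooled ratio 0.171, exact 95% interval 0.0345 to 0.517, on 3 p-UPF1 IP counts), Pop5 (-2.73 ± 0.32 SE), Pop7 (-2.37 ± 0.3 SE) and Rpp40 (-2.06 ± 0.32 SE), all of them subunits. None of 11 was called over the rIgG IP by edgeR, beside 17.5% of all genes higher and 5.34% lower, and 6 had a fitted value above 0. Their median there was 1.17 as fitted and 0 with 3 genes at their bound, against 0.89 and 0.17 over all genes. Pop5 and Rpp40 had 4 and 3 rIgG IP counts, with pooled ratios of 0.14 (exact 95% interval 0.0433 to 0.59) and 0.144 (0.037 to 0.813), and Rpp38 and Pop7 had none.

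Terc, the RNA template of telomerase, lies on chromosome 3 (chr3:96414437-96414859, minus strand, for ENSMUST00000082862.1). All its counts were given to ENSMUST00000238714.1, which GENCODE M21 lacks. There were 20, 15 and 18 counts in Input (0.873, 0.679 and 0.72 CPM), 0, 3 and 0 in the rIgG IP, and 29, 25 and 21 in the p-UPF1 IP (5.76, 3.96 and 3.4 CPM). The p-UPF1 IP libraries lay above the Input libraries without overlap. Terc rose 4.92-fold over input (log2 fold change 2.3 ± 0.28 SE, edgeR adjusted p = 4.82e-05), at percentile 95 of all genes tested. No difference from the rIgG IP was detectable, since 1 library held all 3 rIgG IP counts and the pooled ratio was 1.08 (exact 95% interval 0.355 to 5.35). The pooled ratio of rIgG IP to input was itself 6.05 (exact 95% interval 1.21 to 18.7), though edgeR did not call it (adjusted p = 0.424). Gm22767 and Socs7 were nearest in profile (0.635 and 0.719), with the rIgG IP part resting on 3 counts. As for Meg3, the 1 added to CPM compresses the change of Terc, whose mean in Input was 0.757 CPM.

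Of 10 mRNAs of telomerase particle proteins, none was called higher and 2 were called lower over input, with a median of 0.04. These 2 were Nop10 (-2.55 ± 0.32 SE), an H/ACA core protein, and Naf1 (-1.04 ± 0.14 SE), an H/ACA assembly factor. The share called lower was no larger than the 26.5% of all genes called lower, and 17.3% of all genes were called higher. The median of all genes was -0.42, or -0.24 at the bound. Over the rIgG IP neither was called, at a pooled ratio of 0.216 for Nop10 (exact 95% interval 0.061 to 1.16, 3 rIgG IP counts) and a log2 fold change of -0.86 ± 0.59 SE for Naf1. The list had 2 calls higher there, of 10 tested, beside 17.5% of all genes called higher and 5.34% lower. Both were of genes without a rIgG IP count, Shq1 and Zcchc8, named after their values were seen. Against 3 counts over the group Shq1 was at least 1.6-fold higher, short of the fold threshold, and Zcchc8 at least 2.04-fold higher. In all 5 of the list had no rIgG IP count, and its median was 3.64 as fitted and 0.15 with these at their bound. Over all genes the medians were 0.89 as fitted and 0.17 at the bound.

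**Figure D2:**
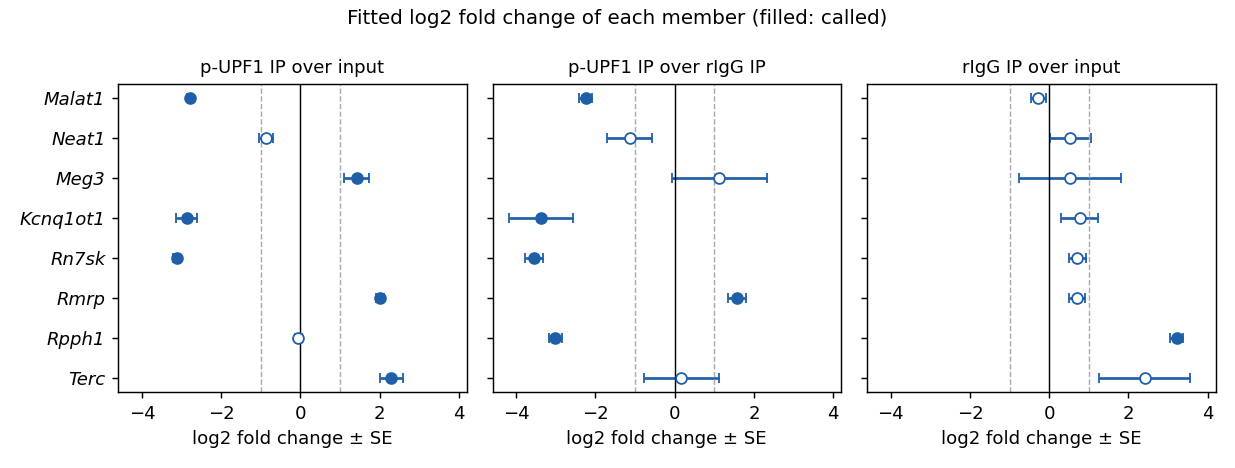
Fitted log2 fold change of each member (horizontal axis, with bars of 1 SE) in the 3 comparisons; filled points are called, open points are not, and dashed lines mark -1 and 1. Rmrp is called higher in both p-UPF1 IP comparisons, Malat1, Kcnq1ot1 and Rn7sk lower in both, and Rpph1 higher in the rIgG IP over input at 3.22.

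Levels of the members were compared with each other per kilobase of the transcript with the most counts over the 9 libraries, which left out Terc. In Input the order was Rn7sk (4801 ± 360.1 CPM per kb, SD, n = 3), Rmrp (458 ± 29.6), Rpph1 (198 ± 3.62), Malat1 (64.3 ± 3.94), Neat1 (0.351 ± 0.0637), Kcnq1ot1 (0.0668 ± 0.00222) and Meg3 (0.0623 ± 0.0201). Kcnq1ot1 and Meg3 did not differ beyond their spread. In the p-UPF1 IP Rmrp came before Rn7sk, at 2119.6 ± 315 against 639 ± 20.6 CPM per kb. Rpph1 (220.5 ± 22.7), Malat1 (10.8 ± 0.57), Neat1 (0.22 ± 0.014), Meg3 (0.193 ± 0.0136) and Kcnq1ot1 (0.0105 ± 0.00529) followed. The Neat1 value there divides by 20771 nt, although that transcript held 23.8% of its p-UPF1 IP counts and the others are shorter, so how near Neat1 lies to Meg3 depends on the length used. In the rIgG IP the order began with Rn7sk (7631 ± 1359 CPM per kb) and Rpph1 (1835 ± 194), then Rmrp (686 ± 195) and Malat1 (51.7 ± 3.58), and the rest had at most 8 counts each.

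Other structural RNAs moved in both directions. Of 29 named, 17 were tested over input, 5 rose and 8 fell (17.3% and 26.5% over all genes), with a median of -0.95 against -0.42 over all genes, or -0.24 at the bound. Rnu7, the U7 RNA of histone mRNA 3′ processing, rose by 5 ± 0.12 SE over input and by 1.49 ± 0.22 SE over the rIgG IP, and like Rpph1 it was also called higher in the rIgG IP over input (3.76 ± 0.19 SE). The Y RNAs Rny1 (-5.09 ± 0.12 SE over input, -4.8 ± 0.32 SE over the rIgG IP) and Rny3 (-3.56 ± 0.19 and -5.2 ± 0.27 SE) fell in both, as did the vault RNA Vaultrc5 (-3.51 ± 0.2 and -3.03 ± 0.61 SE). Rny3 was also called higher in the rIgG IP over input (1.88 ± 0.3 SE). Against the rIgG IP 5 of 17 rose and 10 fell, beside 17.5% and 5.34% of all genes, with a median of -2.14 against 0.89 over all genes, or 0.17 at the bound. In the rIgG IP over input 6 were called higher and none lower, beside 0.584% and 0.313% of all genes, with a median of 1.04 against -0.84 over all genes, or 0 at the bound. Of 16 names listed as mostly cytoplasmic long noncoding RNAs, some of them synonyms, 12 were found in the count table. Of these, 11 were tested over input, with 4 higher, 3 lower and a median of 0.71 (17.3%, 26.5% and -0.42 over all genes). Over the rIgG IP 6 of the 11 were higher and 1 lower, with a median of 1.31 (17.5%, 5.34% and 0.89 over all genes). Gas5, a snoRNA host, rose by 3.31 ± 0.12 SE over input and 3.06 ± 0.24 SE over the rIgG IP, more than any of the 8 members in either. Epb41l4aos rose by 2.12 ± 0.12 SE over input, with a pooled ratio of 11.6 to 2 rIgG IP counts (exact 95% interval 3.2 to 96.2). The neuronal RNA Bc1 (-2.67 ± 0.2 SE) and 2900097C17Rik (-2.49 ± 0.09 SE) fell over input, and 2900097C17Rik also fell over the rIgG IP (-1.58 ± 0.34 SE), where Bc1 had 2 counts and a pooled ratio of 0.345 (exact 95% interval 0.0811 to 3.09). For proteins that act on the 3′ ends or decay of nuclear RNAs, 11 gene names were listed, some of them synonyms. The 8 found in the count table were all tested over input. None was called higher, and Mtrex, the nuclear exosome helicase, was called lower (-1.06 ± 0.08 SE). Their median was 0.32, against -0.42 over all genes, of which 17.3% rose and 26.5% fell. Over the rIgG IP, 17.5% of all genes were called higher and 5.34% lower. Mtrex stood there at 0.05 ± 0.51 SE, and 2 of the 8 in its list were called higher. These were Dis3, an exosome nuclease, and Zcchc7, a cofactor of the exosome, both named after their values were seen, with 239 and 103 p-UPF1 IP counts and no rIgG IP count. Against 3 counts over the group Dis3 was at least 3.44-fold higher and Zcchc7 at least 1.48-fold, short of the fold threshold.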

How the data were processed

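The authors trimmed reads with fastp, mapped them with STAR 2.7.0f to GRCm38.p6 with GENCODE M22 annotation, and quantified transcripts with Salmon 0.13.1 at default settings. The deposited values are estimated counts for each transcript, not scaled for depth. All are whole, and were used as such with no further rounding; how the authors rounded them is not given in the sources used here. Salmon divides fragments shared by transcripts, so near copies and nested transcripts are uncertain, and its strand setting is not named. Column names gave the library.

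Counts were summed per gene name. Each pair of groups was fitted alone (6 libraries) with the quasi-likelihood test of edgeR 4.0.16 (R 4.3.3) after TMM normalization, for genes with a summed count of at least 10, and p-values were adjusted over all genes tested. All 8 members passed this filter in each comparison. An SE is the log2 fold change over the root of its F statistic. Levels are CPM scaled by TMM over the 9 libraries. Pooled ratios use library totals, with exact Clopper-Pearson 95% intervals, and bounds use 3 counts over a group; they cover counting error only, because PCR copies are not independent molecules.

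Named genes are the members, the 2 nearest profiles of each among genes with at least 10 counts in each group, and from each list up to 4 called genes with the largest log2 fold change over input. The members and lists were chosen with earlier results of these data known. GENCODE M21 gave positions, lengths and sequences, and held 139921 of the transcripts under the same identifier and version. Alternatives were RLE factors, library totals alone, DESeq2 1.42.0, no filter on low counts, filterByExpr, a replicate block, 1 fit to all 9 libraries, leaving out the 10 most-counted genes, a call at any fold change, and leaving out each library in turn. Adding the counts of genes that share windows was chosen after seeing the data. The procedure was tested on simulated data, where the share of false calls was above the adjusted p threshold in all 3 comparisons and highest over the rIgG IP. Another marker and another sequence are not reported here.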

Additional observations from a re-analysis of the deposited data

How the results depend on the processing

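Over input, the calls of the 8 members in the p-UPF1 IP (3 higher, 3 lower) were the same in number under every alternative but a call at any fold change, which gave 4 lower. Rpph1, not called, changed sign with library totals alone (0.35) and lay between -0.08 and 0.04 without a library. Genes called higher went from 2919 to 4451 with any fold change. Library totals alone raised the share of calls that were higher from 39.5% to 56.5%. Against the rIgG IP, 1 member higher and 4 lower were called under every alternative, but the number of genes called higher went from 2102 to 1199 with DESeq2, and ranged over 1299 (without rIgG IP replicate 1) to 2033 when a library was left out. Genes called lower went from 643 to 307 without rIgG IP replicate 1, and to at most 674 without another library. The share of calls that were higher went from 76.6% to 64.6% with RLE size factors, 63.6% with a fit to all 9 libraries and 56.7% with DESeq2. Terc, not called, changed sign with RLE size factors (-0.11), filterByExpr (-0.18), DESeq2 (-0.14) and a fit to all 9 libraries (-0.07), and lay between -0.94 and 6.97 without a library. In the rIgG IP over input, 2 members were called higher with RLE size factors or library totals alone and 3 with DESeq2, against 1, and Malat1 moved from -0.27 to 0.04, 0.06 and 0.03. Genes called higher went from 95 to 295 with DESeq2 and 256 without a filter, and genes called lower from 51 to 27 with RLE size factors, 32 with library totals alone, 259 without a filter, 96 with a fit to all 9 libraries and 157 with filterByExpr. The share higher went from 65.1% up to 81.6% with RLE size factors, 77.9% with library totals alone and 85.3% with DESeq2, and down to 52.5% with a fit to all 9 libraries, 49.7% without a filter and 41.6% with filterByExpr. Without a library the genes higher numbered 65 to 180 and the genes lower 25 to 134, the extremes without Input replicate 2 and rIgG IP replicate 2. Meg3 ranged from -6.69 (without rIgG IP replicate 1, which held its count) to 1.01, and Terc from -6.43 (without rIgG IP replicate 2, which held its counts) to 3.46. The cause of the other changes was not tested. Same-numbered libraries did not deviate together (correlations of -0.0297 to 0.0482). Whether they came from the same lysate cannot be told from this, because noise within each group could hide a shared deviation. The replicate block gave 1362 genes higher and 426 lower over the rIgG IP, and moved no count of members called. The depth of the rIgG IP limits every comparison with it for Neat1, Meg3, Kcnq1ot1 and Terc.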
